A study of Mus musculus with 17 samples.

Results

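Extraembryonic endoderm stem (XEN) cells of CD-1 mice were compared after growth in XEN medium and in ESC medium, the medium used for embryonic stem cells. Members were chosen by the source label of each sample, which gives 3 libraries in XEN medium and 3 in ESC medium, 6 of the 17 libraries of the series. Both groups first spent 10 passages in ESC medium. The ESC medium group then spent 5 more passages in ESC medium, and the XEN medium group spent those 5 passages in XEN medium. Each library carries the number 1, 2 or 7 in its title, once in each medium. The labels describe each as an extraembryonic endoderm stem cell line, name no genetic change in the XEN cells, and do not say what the 2 media contain, whether feeder cells were present, or whether a number stands for 1 line. The other 11 libraries are 8 of iXEN cells (induced XEN cells made with the reprogramming factors OSKM), grown 4 in each medium on the same schedule, and 3 of mouse embryonic fibroblasts (MEF).

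XEN cells are the stem cells of the extraembryonic endoderm, the lineage that forms the yolk sac endoderm of the mouse embryo. Its parietal branch secretes a thick basement membrane of laminin and type IV collagen, and its visceral branch takes up and carries nutrients. The lineage is set by the transcription factors Gata6, Gata4 and Sox17. Growth medium acts on such cells through cytokines, growth factors, lipids and matrix, so lists of genes for each of these were examined.

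In ESC medium the libraries held 20071567, 23570538 and 42349804 reads counted in genes for numbers 1, 2 and 7. In XEN medium they held 39295425, 37544512 and 45914262, so the XEN medium library was the deeper one in every number, by the least in number 7. All levels below are CPM (read counts scaled to a common library size), with scaling factors from the 17 libraries, and are not corrected for gene length. A count of 0 allows up to 0.149 CPM in the shallowest of the 6 libraries and 0.0653 CPM in the deepest, for counting error only. Replicates differed far beyond counting noise, with a chi-square per degree of freedom of at least 247 between any pair of libraries of a group, so none was treated as a duplicate.

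The label of XEN cells was checked against marker genes. All 10 XEN markers had counts in every library, and their summed level ran from 10240 to 113100 CPM in ESC medium and from 15040 to 46170 CPM in XEN medium. The same 10 genes also had counts in MEF, where they summed to 7182 to 7460 CPM. Gata4 was at 676, 1475 and 356 CPM in ESC medium and at 1283, 705 and 423 CPM in XEN medium for numbers 1, 2 and 7. Gata6 was at 259, 400.0 and 154 CPM in ESC medium and at 612, 380.2 and 209 CPM in XEN medium. Sox17 was at 234, 256 and 377 CPM in ESC medium and at 338, 338 and 256 CPM in XEN medium. For each of these transcription factors the groups overlapped.

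Number 7 stood apart from numbers 1 and 2 in both media. Sox7, an endoderm transcription factor, was at 0.476 CPM in ESC medium and 0.822 CPM in XEN medium in number 7, against 42.0 to 274 CPM in the other libraries. Pth1r, a parietal endoderm receptor, was at 23.9 and 39.8 CPM in number 7 against 788 to 1304.5 CPM. Cdh1, which encodes E-cadherin of epithelial junctions, was at 217 and 168 CPM in number 7 against 25.3 CPM or less elsewhere. Among the 6 libraries number 7 alone had high levels of Xist, the RNA of the inactive X chromosome, at 726 and 1114 CPM against 2.45 CPM or less elsewhere, and neither library of number 7 had a count for the Y-linked Ddx3y.

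Fibroblast markers differed between libraries of the same group. The 12 fibroblast markers summed to 8101 CPM in number 1 and 344 CPM in number 2 in ESC medium, and to 5.79 CPM in number 7. They summed to 14.8, 3.17 and 7.30 CPM in XEN medium, and to 46010 to 60930 CPM in MEF. Collagen genes made up most of the sums of numbers 1 and 2 in ESC medium. Col1a1, Col1a2 and Col3a1 were at 2482, 2994 and 1519 CPM in number 1, and at 136, 129.7 and 33.4 CPM in number 2. Other markers did not all follow. Igf2 was at 5.12 CPM in number 1, against 7939 to 9707 CPM in MEF, and Thy1 and Postn were at 0.312 and 0.801 CPM in number 2. Markers of pluripotent cells summed to at most 29.0 CPM, trophoblast markers to at most 7.82 CPM, and macrophage markers to at most 15.98 CPM in any of the 6 libraries. Among the latter, C1qa, C1qb and Emr1 had no counts in any of the 6 libraries.

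**Figure D1:**
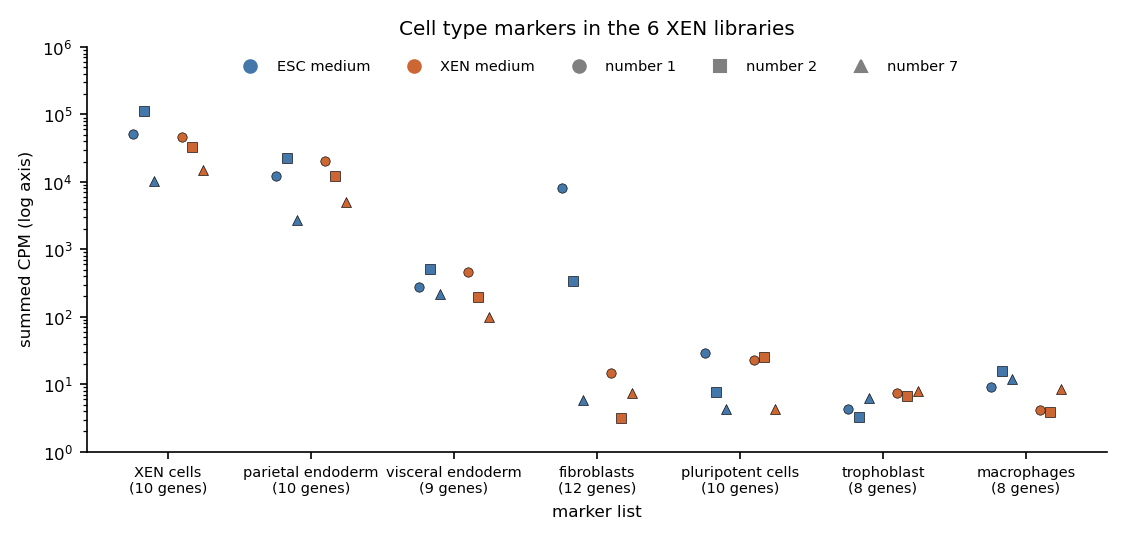
Summed CPM of marker genes for 7 cell types (log axis) in the 6 XEN libraries, with ESC medium in blue, XEN medium in orange and one symbol per number. The fibroblast sum reaches 8101 CPM in number 1 and 344 CPM in number 2 in ESC medium and lies at 14.8 CPM or below in the other 4 libraries.

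No gene passed the test between the media in XEN cells. Of 13241 genes tested with edgeR's quasi-likelihood test and Benjamini-Hochberg adjustment, 0 (0%) were called at an adjusted p under 0.05, and the smallest adjusted p was 0.800. At an unadjusted p under 0.05 there were 746 genes (5.63%). DESeq2, run on the same counts, called 20 genes higher in XEN medium (0.151%) and 43 lower (0.325%), while limma-voom called 0. The biological coefficient of variation was 0.701, which means that replicates of one medium commonly differed by this fraction of their mean. In bulk RNA, a smaller share of cells of a type and less RNA per cell cannot be told apart.

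Same-numbered libraries deviated together from their group means. Across genes, the correlation of these deviations was 0.258 for number 1, 0.388 for number 2 and 0.658 for number 7, although number 1 in XEN medium correlated more with number 2 in ESC medium (0.451). With the number as a block the coefficient of variation was 0.508 and the smallest adjusted p was 0.567. The blocked fit called 0 genes (0%), with 1144 at an unadjusted p under 0.05 (8.64%).

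As a description without a test, 1008 genes (7.61%) had all 3 XEN medium libraries above all 3 ESC medium libraries, and 660 genes (4.98%) had all 3 below. The higher genes were 60.4% of the genes that did not overlap. Under RLE scaling the counts were 821 higher and 838 lower, a share of 49.5%, so the excess of higher genes depended on the scaling. Counts of non-overlapping members given below are read against these percentages.

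The difference between the media followed the GC content of the transcripts. Genes were put into 10 equal groups by GC content. In the group lowest in GC (29.6% to 42.0%) the median log2 difference, XEN medium minus ESC medium, was 0.475, and in the highest (58.3% to 72.8%) it was -0.594. The gradient had the same direction in all 3 numbers, from 0.724 to -0.583 in number 1, from 0.315 to -0.314 in number 2 and from 0.691 to -0.561 in number 7. A gradient of like size separated numbers 2 and 1 within ESC medium (0.478 to -0.511), and the iXEN comparison showed none of this direction (0.0426 to 0.253). In the lowest group 288 genes did not overlap and were higher in XEN medium and 14 were lower. In the highest group 8 were higher and 185 lower. After a correction for GC content, 529 genes did not overlap and were higher and 571 lower, of which 416 and 360 were also apart before it, and 0 genes passed the test. What part GC content plays in any single gene was not tested, so it is named below where the correction ended the separation of the groups.

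**Figure D2:**
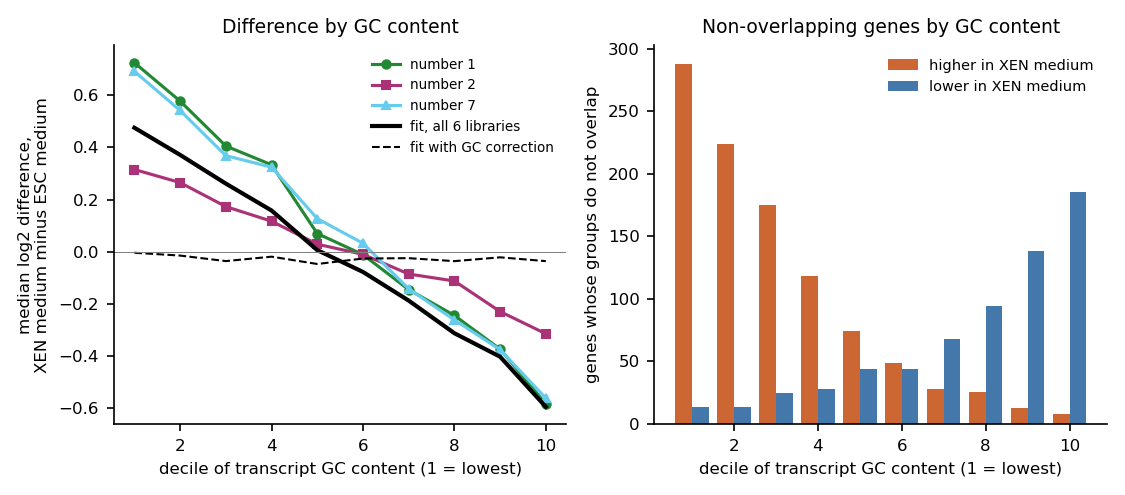
Left, median log2 difference between XEN and ESC medium (y axis) over 10 equal groups of genes ordered by transcript GC content (x axis), for each number, for the fit to all 6 libraries and for the fit with GC correction. Right, number of genes per group whose groups do not overlap, higher (orange) or lower (blue) in XEN medium; higher genes go from 288 to 8 and lower genes from 14 to 185.

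The 8 genes with the widest gap upward in XEN medium included developmental regulators and a lysosomal protease. Lin28a, an RNA-binding protein that blocks maturation of let-7 microRNAs, was at 80.7, 109 and 65.5 CPM in ESC medium and at 353, 303 and 288 CPM in XEN medium for numbers 1, 2 and 7. Every XEN medium library lay above every ESC medium library, by a log2 fold change of 1.86 ± 0.31 (SE, n = 3 per medium). The adjusted p was 0.800 in edgeR and 0.000433 in DESeq2. In iXEN cells Lin28a was at 169 ± 60.4 CPM in ESC medium and 328 ± 163 CPM in XEN medium (SD, n = 4 per medium), and the groups overlapped. In MEF it was at 0.147 CPM.

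Bbx, an HMG-box protein, was at 20.003, 25.023 and 19.4 CPM in ESC medium and at 85.9, 84.6 and 72.5 CPM in XEN medium, with a log2 fold change of 1.89 ± 0.28. The 3 values within each medium were close together, and DESeq2 gave Bbx an adjusted p of 1.98e-05. Prtg (protogenin), an immunoglobulin superfamily receptor of early embryos, was at 8.77, 5.39 and 7.48 CPM in ESC medium and at 24.7, 42.2 and 39.8 CPM in XEN medium. Prtg also separated the iXEN groups, at 11.9 ± 11.1 CPM in ESC medium and 76.3 ± 66.5 CPM in XEN medium (SD, n = 4). Nrk, an X-linked kinase known from placenta, was at 1.09, 7.30 and 1.82 CPM in ESC medium and at 19.4, 36.2 and 22.3 CPM in XEN medium.

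Ctsc, the lysosomal protease cathepsin C, was at 40.1, 4.14 and 41.5 CPM in ESC medium and at 126, 114 and 202 CPM in XEN medium. Syde2, a regulator of small GTPases, was at 4.65, 4.01 and 4.02 CPM in ESC medium and at 15.3, 12.5 and 12.4 CPM in XEN medium. Nudt12, which hydrolyses NADH, and Ptprn2, a phosphatase-like protein of secretory vesicles, were the lowest of the 8 in level. Nudt12 was at 0.664, 1.56 and 1.40 CPM in ESC medium and at 5.90, 5.29 and 7.78 CPM in XEN medium. Ptprn2 was at 0.948, 1.20 and 1.56 CPM in ESC medium and at 5.75, 5.84 and 4.65 CPM in XEN medium. All 8 genes remained apart in the same direction under RLE scaling and after GC correction. They were chosen for the widest gap in these same libraries, which made this likely, so it is not independent support.

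Of the 8 genes with the widest gap downward, the 6 described here were low in XEN medium and highest in number 1 in ESC medium. Zfp575, a zinc finger gene, was at 84.8, 10.9 and 4.10 CPM in ESC medium and at 0.642, 0.193 and 0.301 CPM in XEN medium, with a log2 fold change of -6.47 ± 1.37. DESeq2 gave it an adjusted p of 4.93e-06 and edgeR 0.800. Il3ra, the alpha chain of the interleukin-3 receptor, was at 71.8, 21.8 and 23.5 CPM in ESC medium and at 4.79, 4.21 and 5.23 CPM in XEN medium, and both groups were far apart without number 1. Lgals7, the galectin-7 gene, was at 10.1, 8.73 and 5.13 CPM in ESC medium and at 1.46, 2.01 and 0.943 CPM in XEN medium.

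Nbl1, a secreted BMP antagonist, was at 26.9, 3.21 and 3.38 CPM in ESC medium and at 0.321, 0.716 and 0.742 CPM in XEN medium. Trib2, a pseudokinase, was at 17.1, 1.96 and 3.04 CPM in ESC medium and at 0.0247, 0.0275 and 0.762 CPM in XEN medium. Stmn2, a microtubule-destabilising protein, was at 12.7, 6.32 and 1.14 CPM in ESC medium, had no counts in numbers 1 and 2 in XEN medium, and was at 0.1003 CPM in number 7.

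Nbl1, Trib2 and Stmn2 were also present in MEF, at a mean of 78.9 CPM for Nbl1, 40.5 CPM for Trib2 and 23.3 CPM for Stmn2. Number 1 in ESC medium, where they were highest, is the library with 8101 CPM of fibroblast markers. In number 7, whose ESC medium library held 5.79 CPM of fibroblast markers, each of the 3 was still lower in XEN medium. The part of fibroblast RNA in these differences was not tested. All 6 remained apart in the same direction under RLE scaling and after GC correction, which was likely for genes chosen for the widest gap in these same libraries.

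**Figure D3:**
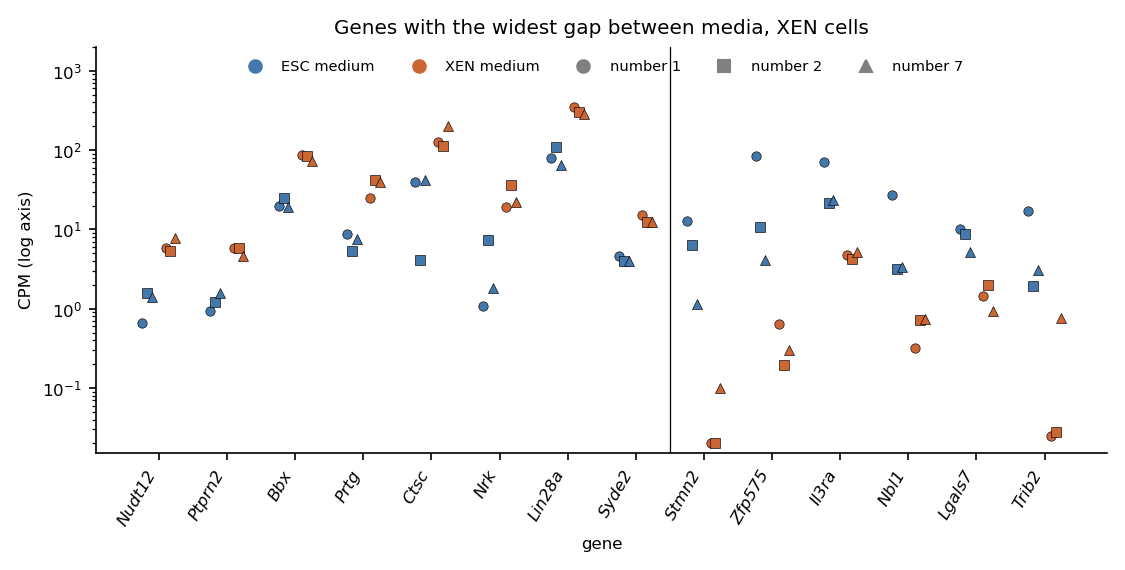
CPM (log axis) of the 8 genes with the widest gap upward (left of the line) and 6 of the 8 with the widest gap downward (right) in XEN medium, one point per library; the 2 Stmn2 libraries without counts are drawn at the bottom. In each gene the orange points of XEN medium and the blue points of ESC medium do not overlap, and in the 6 lower genes number 1 is the highest ESC medium library.

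The blocked fit ranked genes by the difference between media relative to the spread left after allowing for the number. The size of the difference could still vary between the 3 numbers. The 24 leading genes of this fit all had an edgeR adjusted p of 0.567, a value shared by other genes, among them Abcc1 and Ccnb1. Spink3, a trypsin inhibitor gene of the visceral endoderm list, was at 9.24, 9.75 and 41.3 CPM in ESC medium and at 112, 76.4 and 247 CPM in XEN medium, a blocked log2 fold change of 3.02 ± 0.36. Spink3 also separated the iXEN groups, at 11.8 ± 6.83 CPM in ESC medium and 195 ± 217 CPM in XEN medium (SD, n = 4). Mycn, a MYC family transcription factor, was at 11.7, 27.0 and 39.7 CPM in ESC medium and at 47.6, 110.4 and 153 CPM in XEN medium, a blocked log2 fold change of 1.97 ± 0.29. In each number Mycn was about equally higher in XEN medium, and the iXEN groups were apart in the same direction, at 25.8 ± 10.3 and 91.0 ± 64.8 CPM. Hells, a chromatin remodeller of proliferating cells, was at 23.5, 76.9 and 45.6 CPM in ESC medium and at 94.3, 211 and 124 CPM in XEN medium. Pawr, a pro-apoptotic regulator, was at 12.7, 25.3 and 8.14 CPM in ESC medium and at 80.1, 64.2 and 46.9 CPM in XEN medium.

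Hdc, AU015836 and Gnb4 also led the blocked fit, although their groups overlapped. Hdc, which makes histamine, was at 2.18, 1.91 and 0.132 CPM in ESC medium and at 34.3, 9.67 and 1.58 CPM in XEN medium. AU015836 was at 2.18, 1.29 and 0 CPM in ESC medium and at 74.9, 29.2 and 0.0401 CPM in XEN medium, so it was near absent from number 7 in both media. Gnb4, a G protein beta subunit, was at 3.03, 2.23 and 14.8 CPM in ESC medium and at 29.6, 11.5 and 73.0 CPM in XEN medium. Fignl1, an ATPase of DNA repair, had a blocked log2 fold change of 1.58 ± 0.30, and Fam84b, whose groups did not overlap before GC correction, one of 3.10 ± 0.58.

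The leading lower genes of the blocked fit had varied roles. Capg, an actin-capping protein, was at 40.1, 8.59 and 116 CPM in ESC medium and at 4.86, 1.18 and 25.8 CPM in XEN medium. Mmp2, a secreted gelatinase, was at 255, 13.9 and 0.106 CPM in ESC medium and at 10.2, 0.220 and 0.0401 CPM in XEN medium, so only numbers 1 and 2 had an appreciable level. Col6a3, a type VI collagen chain, was at 94.5, 37.3 and 0.0264 CPM in ESC medium and at 0.765, 0.0275 and 0.0201 CPM in XEN medium. Uap1l1 was at 431, 289 and 191 CPM in ESC medium and at 67.0, 86.3 and 58.4 CPM in XEN medium, and DESeq2 gave it an adjusted p of 0.00167. Nupr1, a stress-induced nuclear protein, was at 359, 18.7 and 163 CPM in ESC medium and at 66.5, 4.71 and 64.4 CPM in XEN medium. Emp3, Adamtsl5, Pi16 and Prkcdbp had blocked log2 fold changes of -2.75 ± 0.47, -1.74 ± 0.31, -2.02 ± 0.37 and -4.87 ± 0.94.

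The genes of type IV collagen were among the 5 transcripts with the most reads in ESC medium, and were nearly absent from number 1 in XEN medium. Col4a1 and Col4a2 encode the alpha chains of the main collagen of basement membranes and lie head to head on mouse chromosome 8, where they share a promoter region. Their RefSeq windows, from 250 bases before to 50 bases after each annotated start (build GRCm38.p6), are shown because both genes moved together in 1 library. The windows lie at chr8:11312777-11313076 on the minus strand for Col4a1 and chr8:11312555-11312854 on the plus strand for Col4a2. Capitals mark the 78 bases that lie in both windows, read from opposite strands:
Col4a1: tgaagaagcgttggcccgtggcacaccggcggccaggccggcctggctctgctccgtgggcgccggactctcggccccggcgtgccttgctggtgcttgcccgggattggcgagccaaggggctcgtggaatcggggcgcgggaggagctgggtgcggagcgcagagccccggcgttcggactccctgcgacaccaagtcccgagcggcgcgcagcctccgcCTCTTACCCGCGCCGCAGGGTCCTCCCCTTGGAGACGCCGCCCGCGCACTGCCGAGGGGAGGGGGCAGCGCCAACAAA
Col4a2: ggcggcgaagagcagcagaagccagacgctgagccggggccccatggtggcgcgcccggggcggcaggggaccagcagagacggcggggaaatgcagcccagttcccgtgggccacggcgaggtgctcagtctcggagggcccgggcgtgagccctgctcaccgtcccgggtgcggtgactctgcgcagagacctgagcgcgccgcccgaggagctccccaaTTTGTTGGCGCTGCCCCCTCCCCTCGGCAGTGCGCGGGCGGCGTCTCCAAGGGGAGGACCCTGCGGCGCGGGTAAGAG

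Col4a1 was at 13577, 55098 and 2327 CPM in ESC medium for numbers 1, 2 and 7, and at 6.15, 6901 and 5022 CPM in XEN medium. Col4a2 was at 9823, 34272 and 1835 CPM in ESC medium and at 3.16, 5102 and 2712 CPM in XEN medium. In number 1 in XEN medium 249 reads fell in Col4a1 and 128 in Col4a2, so the level was 2208-fold and 3108-fold lower than in number 1 in ESC medium. The lowest level in any of the other 16 libraries, MEF included, was 751 CPM for Col4a1 and 642 CPM for Col4a2. In number 7 both genes were higher in XEN medium, and over all 6 libraries the log2 fold change was -2.61 ± 1.97 for Col4a1 and -2.59 ± 1.95 for Col4a2, with an edgeR adjusted p of 0.817 for each.

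The genes on either side were not lost in the same way. Irs2, the next gene on the Col4a1 side, was at 2.99 CPM in ESC medium and 9.01 CPM in XEN medium in number 1. Rab20, the next on the Col4a2 side, was at 7.30 and 3.78 CPM in number 1, the latter the lowest of the 6 libraries, and Ing1 at 42.9 and 67.4 CPM. Of the 21 basement membrane genes that passed, both collagen genes included, 13 were lower and 8 higher in XEN medium in number 1. Among the higher ones, Lama1 went from 11539 to 15614 CPM, Lamb1 from 9367 to 15455 CPM and Nid1 from 1400.2 to 7140 CPM, and among the lower ones Hspg2 went from 787 to 312 CPM. Whether the loss is in the cells of that culture or in the library, and by what route, was not tested.

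**Figure D4:**
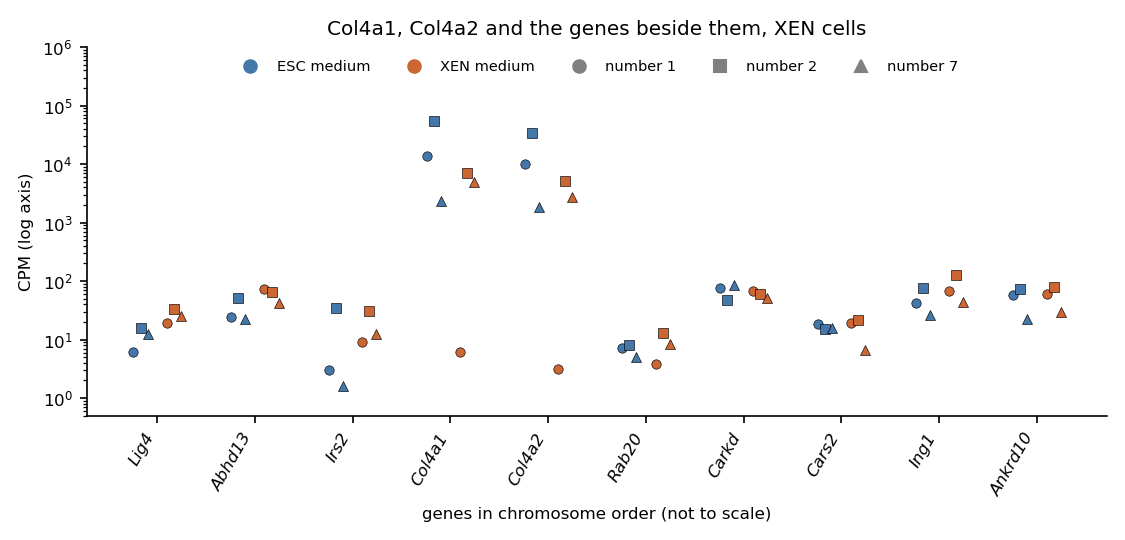
CPM (log axis) of Col4a1, Col4a2 and the protein-coding genes beside them with at least 5 CPM in a library, in chromosome order without distances, one point per library. Number 1 in XEN medium (orange circle) lies at 6.15 CPM in Col4a1 and 3.16 CPM in Col4a2. In the adjoining genes it lies at 9.01 CPM in Irs2 and at 3.78 CPM in Rab20, where it is the lowest of the 6 libraries.

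Losses within a single number were counted, by a rule chosen after these values were seen, as genes with at least 20 CPM in ESC medium and at most 1% of that level in XEN medium. Number 1 had 111 such genes, number 2 had 22 and number 7 had 0, and 9 genes were in both lists. In the opposite direction the counts were 2, 8 and 0. Of the 111 genes of number 1, 98 had at least 20 CPM in MEF, and of the 22 genes of number 2 it was 19, and both shares are near the background. Of the genes with at least 20 CPM in ESC medium in the same number, 84.4% reached 20 CPM in MEF for number 1 and 83.8% for number 2. The 111 genes included the fibroblast genes Col1a1, at 2482 CPM in ESC medium and 0.296 CPM in XEN medium, Postn, at 505 and 0.0247 CPM, and Thy1, at 223 and 0.0247 CPM. Itgb4, an epithelial integrin at 3.28 CPM in MEF, went from 429 to 1.65 CPM. The Y-linked Ddx3y went from 40.5 to 0.0247 CPM in number 1, whereas in number 2 it was at 41.2 and 71.1 CPM. Other Y-linked genes were lower to a smaller degree in number 1, with Eif2s3y at 68.0 and 15.7 CPM, Kdm5d at 10.2 and 0.321 CPM and Uty at 8.39 and 0.420 CPM.

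Genes gained in number 2 in XEN medium included epithelial genes that were already high in number 7. Cdh1 went from 0.0890 to 25.3 CPM in number 2 and was at 217 and 168 CPM in number 7. Cldn6, a tight junction protein, went from 0.267 to 99.0 CPM in number 2 and was at 244 and 212 CPM in number 7. St14, a membrane protease, went from 0.0445 to 43.2 CPM in number 2, and in number 7 it was at 0.582 and 0.180 CPM. Mageb16, an X-linked gene of the MAGE family, was the gain shared by numbers 1 and 2 together with Gm8615. Mageb16 was at 0.284, 0 and 17.7 CPM in ESC medium and at 44.3, 69.6 and 43.4 CPM in XEN medium, so its groups did not overlap.

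The gene lists were examined by role, beginning with identity of the lineage. All 15 genes of the XEN core list passed the filter on low counts, none was called, and none had groups apart in either direction. The median log2 fold change was -0.39, and the medians within numbers 1, 2 and 7 were 0.03, -0.54 and 0.27. Of 19 visceral endoderm genes that passed, 2 did not overlap and were higher, Spink3 and Lrp2, and 0 were lower. Lrp2, the endocytic receptor megalin, was at 9.67, 12.02 and 12.2 CPM in ESC medium and at 42.6, 139 and 17.4 CPM in XEN medium. Of 23 parietal endoderm genes 0 were higher and 2 were lower without overlap, Snai2 and Hspg2. Hspg2, which encodes the proteoglycan perlecan, was at 787, 906 and 612 CPM in ESC medium and at 312, 378 and 527 CPM in XEN medium, and overlapped after GC correction. Snai2, a repressor of epithelial genes, was at 10.1, 2.85 and 2.91 CPM in ESC medium and at 0.420, 0.275 and 1.78 CPM in XEN medium.

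Of 21 basement membrane genes that passed, 0 were higher and 2 lower without overlap, Hspg2 and Fbln1, and the median log2 fold change was -0.46. Within numbers 1, 2 and 7 the medians were -0.66, -1.17 and 0.41. Lama1, the laminin alpha chain of this lineage, was at 11539, 23978 and 1464.5 CPM in ESC medium and at 15614, 9385 and 3090 CPM in XEN medium, so it was lower in XEN medium in number 2 alone. Sparc, a collagen-binding matrix protein, was at 23284, 30015 and 5102 CPM in ESC medium and at 26569, 13310 and 5359 CPM in XEN medium. In iXEN cells both were lower without overlap in XEN medium, Lama1 from 24559 ± 5062 to 6709 ± 697 CPM and Sparc from 27211 ± 5999 to 13750 ± 5712 CPM (SD, n = 4), with edgeR adjusted p of 0.0581 and 0.198. Besides these, Rn45s, Lamb1 and Eef1a1 were among the 5 transcripts with the most reads in one medium or the other. Eef1a1, a translation elongation factor, was at 8292, 8013 and 6127 CPM in ESC medium and at 11568, 13688 and 9608 CPM in XEN medium, and overlapped after GC correction.

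Fibroblast genes had the lowest median of all lists. Of 15 that passed, 1 was lower without overlap, S100a4, and the median log2 fold change was -6.21. The medians were -7.41 in number 1, -4.5 in number 2 and 0.12 in number 7. DESeq2 called 4 of the 15 lower. In iXEN cells the same list had a median of 4.63, and there the fibroblast markers summed to 27.3 to 50.6 CPM in ESC medium and to 4.27 to 2335 CPM in XEN medium. The summed level was highest in number 1 in ESC medium of XEN cells (8101 CPM) and in numbers 2 (2335 CPM) and 9 (1041 CPM) in XEN medium of iXEN cells. The interferon list had a median of -3.67 in number 1, -0.25 in number 2 and 0.26 in number 7, and of its 18 genes that passed 0 had groups apart.

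Of 21 epithelial genes that passed, 0 had groups apart, and the medians were 0.01, 2.36 and -0.22 in numbers 1, 2 and 7. Krt18, a keratin of simple epithelia, was at 295, 84.4 and 2910 CPM in ESC medium and at 296, 434 and 1170 CPM in XEN medium. Krt19, another such keratin, was at 29.3, 2.94 and 1937 CPM in ESC medium and at 1.04, 69.7 and 724 CPM in XEN medium. Both were highest in number 7 in either medium, and Krt19 was lower in XEN medium in numbers 1 and 7 and higher in number 2.

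**Figure D5:**
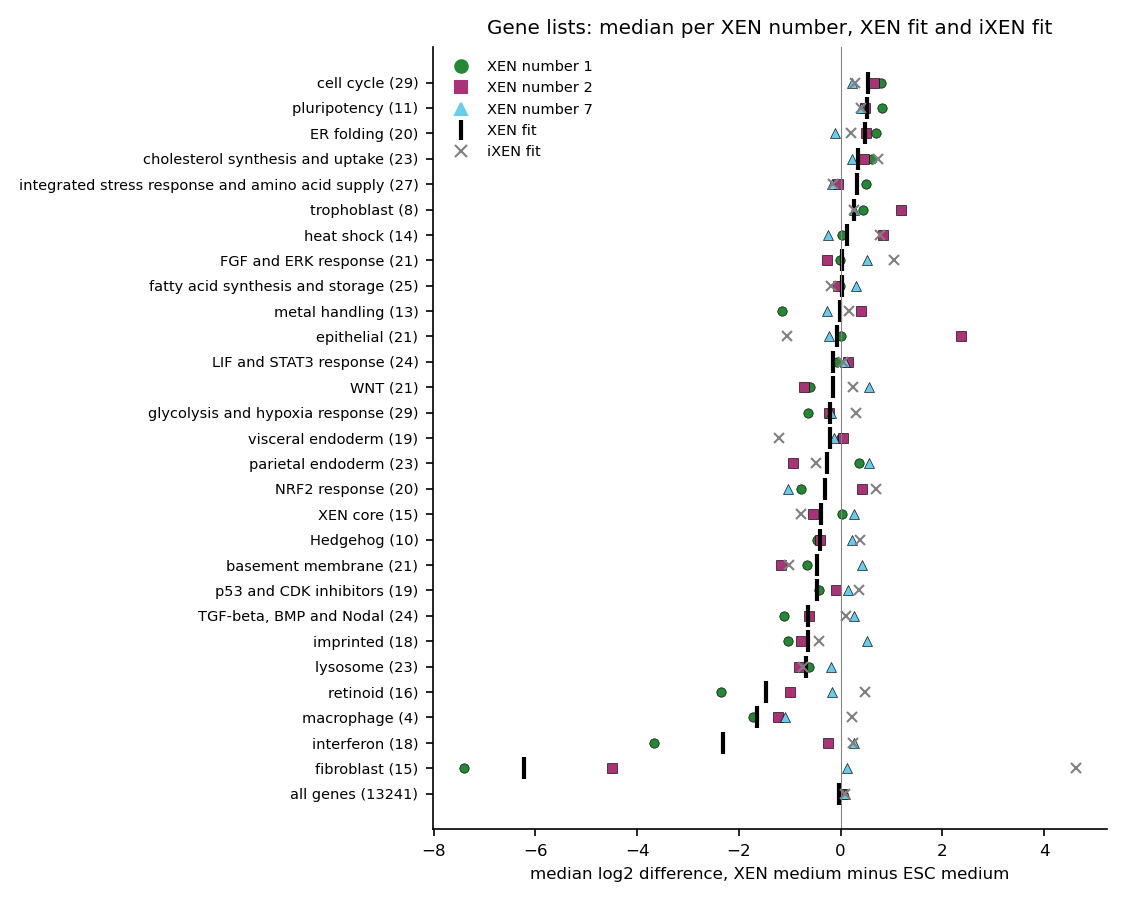
Median log2 difference (x axis), XEN medium minus ESC medium, of 28 gene lists and of all genes (y axis, number of genes that passed in brackets) within each XEN number, in the fit to all 6 XEN libraries and in the fit to the 8 iXEN libraries. Fibroblast and interferon genes lie far below 0 in number 1 and near 0 in number 7, while cell cycle and cholesterol genes lie above 0 in all 3 numbers.

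Of the signalling lists, genes that respond to LIF and STAT3 had 3 of 24 members higher without overlap and 0 lower. Pim1, a STAT-induced kinase, was at 6.35, 4.497 and 6.11 CPM in ESC medium and at 16.025, 19.5 and 22.2 CPM in XEN medium, with a DESeq2 adjusted p of 0.00939. Pim3, a related kinase, was at 29.6, 32.1 and 30.9 CPM in ESC medium and at 53.5, 51.7 and 37.7 CPM in XEN medium. Socs3, the feedback inhibitor of this pathway, was at 37.6, 45.5 and 38.6 CPM in ESC medium and at 58.5, 81.7 and 57.3 CPM in XEN medium. These 3 stayed apart under RLE scaling and after GC correction, while the list's median was -0.14. The receptor subunit Lifr was at 260, 547 and 50.8 CPM in ESC medium and at 673, 379 and 130 CPM in XEN medium, and Stat3 at 129, 194 and 111 against 318, 170 and 195 CPM, each with overlap.

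Of 24 genes of TGF-beta, BMP and Nodal signalling, 1 was higher without overlap, the receptor Tgfbr1, which overlapped after GC correction, and 1 was lower. Of 21 WNT genes, 1 was higher, Tcf7, and 1 lower, Dkk2. Tcf7, a transcription factor and target of WNT signalling, was at 0.995, 0.712 and 0.687 CPM in ESC medium and at 4.40, 4.32 and 3.15 CPM in XEN medium. Dkk2, a secreted WNT modulator, was at 14.9, 0.356 and 1.37 CPM in ESC medium and at 0.321, 0.0826 and 0.341 CPM in XEN medium. Of 21 genes of FGF and ERK signalling 1 was higher, Spred1, which overlapped under RLE scaling and after GC correction. Of 10 Hedgehog genes 0 had groups apart. The retinoid list had a median of -1.48 over 16 genes, with 1 gene lower without overlap and medians of -2.34, -0.99 and -0.17 in numbers 1, 2 and 7.

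Of 23 genes of cholesterol synthesis and uptake, 6 were higher without overlap and 0 lower, and the median log2 fold change was 0.34, beside -0.04 for all genes. Within numbers 1, 2 and 7 the medians were 0.61, 0.46 and 0.22, and in iXEN cells it was 0.73. Stard4, a sterol carrier, was at 7.63, 23.5 and 12.6 CPM in ESC medium and at 39.4, 31.6 and 37.7 CPM in XEN medium. Under RLE scaling 4 members were higher and Sqle, an epoxidase of sterol synthesis, overlapped. After GC correction Nsdhl, Sc5d and Sqle overlapped, and 3 members were higher, among them Stard4 and Lss, the last of which overlapped before it.

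Of 25 genes of fatty acid synthesis and storage, 5 were higher and 1 lower without overlap. The median log2 fold change was 0.03, with medians of -0.01, -0.04 and 0.30 in numbers 1, 2 and 7. In all 3 numbers 6 genes were higher and 4 lower, shares near those of all genes (2574 and 2099 of 13241). Scd1, a stearoyl-CoA desaturase, was at 138, 116 and 61.5 CPM in ESC medium and at 438, 249.8 and 167 CPM in XEN medium, and overlapped after GC correction. Scd2, a second desaturase, was at 994, 1545 and 968 CPM in ESC medium and at 1925, 1740.0 and 2507 CPM in XEN medium. Scd2, the elongase Elovl5 and Acsl4, which activates arachidonic acid, remained apart after GC correction, and Acsl3 did not. Elovl5 was at 55.2, 64.4 and 54.8 CPM in ESC medium and at 119, 115 and 94.4 CPM in XEN medium. Acsl4 was at 24.7, 62.1 and 31.2 CPM in ESC medium and at 154, 134 and 83.0 CPM in XEN medium. The lower member was Acacb, an acetyl-CoA carboxylase, which overlapped after GC correction.

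Lysosomal genes leaned downward, with exceptions. Of 23 that passed, 6 were lower and 2 higher without overlap. In all 3 numbers 12 were lower and 3 higher, beside 2099 and 2574 of all 13241 genes. The median log2 fold change was -0.67, the medians within numbers 1, 2 and 7 were -0.61, -0.82 and -0.19, and in iXEN cells it was -0.74. Ctsd, the protease cathepsin D, was at 1963, 1144 and 1791 CPM in ESC medium and at 754, 652 and 827 CPM in XEN medium. Grn, which encodes progranulin, was at 795, 483 and 598 CPM in ESC medium and at 336, 159.9 and 449.5 CPM in XEN medium. Ctsb, Ctsa and Ctsz were also lower, and after GC correction Ctsa and Ctsz overlapped. The higher members were Ctsc and Lipa, the lysosomal acid lipase, which was at 50.3, 63.1 and 55.0 CPM in ESC medium and at 136, 136 and 132 CPM in XEN medium. DESeq2 gave Lipa an adjusted p of 0.0138, and edgeR 0.800. In iXEN cells Ctsd and Grn were also apart in the same direction, while Lipa overlapped at 87.7 ± 38.4 CPM in ESC medium and 62.6 ± 22.6 CPM in XEN medium (SD, n = 4).

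Cell cycle genes were higher within most numbers. All 29 genes of the list passed, 19 were higher in XEN medium in all 3 numbers and 2 were lower, beside 2574 and 2099 of all 13241 genes. The groups did not overlap for 6 higher genes and 1 lower, and the median log2 fold change was 0.54. The medians were 0.78, 0.66 and 0.22 in numbers 1, 2 and 7. Top2a, a topoisomerase of dividing cells, was at 157, 389 and 405 CPM in ESC medium and at 680.5, 586 and 783 CPM in XEN medium, and overlapped after GC correction. Ccnb1, the mitotic cyclin B1, was at 109, 213 and 143 CPM in ESC medium and at 280.1, 319 and 352 CPM in XEN medium, and Cdc6, a replication licensing factor, was at 33.8, 87.2 and 51.0 CPM against 108, 182 and 113 CPM. Aurka, Bub1 and Ccna2 were also higher without overlap; Ccna2 overlapped under RLE scaling, and Bub1 and Ccna2 after GC correction. E2f1, a transcription factor of the cell cycle, was the lower member, and overlapped after GC correction, at 31.8, 34.2 and 32.2 CPM against 26.7, 22.97 and 23.2 CPM. Ccnd1, cyclin D1, was at 75.03, 79.1 and 219 CPM in ESC medium and at 1.31, 11.1 and 114 CPM in XEN medium, with overlap. Of 19 genes of p53 and the CDK inhibitors, 1 was higher, Trp53inp1, and 1 lower, Cdkn1a, at 171, 152 and 208 CPM against 116, 142 and 133 CPM, and both overlapped after GC correction.

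Of 29 genes of glycolysis and the hypoxia response, 0 were higher and 3 lower without overlap. Slc16a3, a lactate exporter, was at 12.7, 26.6 and 4.07 CPM in ESC medium and at 1.63, 3.08 and 1.32 CPM in XEN medium. Pfkl, a phosphofructokinase, was at 184, 253 and 225 CPM in ESC medium and at 85.8, 140.4 and 96.6 CPM in XEN medium. Pfkp, another subunit of that enzyme, was the third. Slc16a3 and Pfkl overlapped after GC correction.

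Stress lists had few members apart. Of 27 genes of the integrated stress response and amino acid supply 1 was higher, the amino acid transporter Slc38a2, of 20 NRF2 genes 1 was higher, the exporter Abcc1, and of 14 heat shock genes 1 was higher, Chordc1, and 1 lower, Bag3. Slc38a2 and Chordc1 overlapped after GC correction, and Chordc1 also under RLE scaling. Abcc1 was at 35.6, 17.4 and 34.2 CPM in ESC medium and at 95.8, 105 and 63.8 CPM in XEN medium, and remained apart after GC correction. The NRF2 list did not follow Abcc1, with a median log2 fold change of -0.31. Its medians were -0.79, 0.43 and -1.03 in numbers 1, 2 and 7, and 0.70 in iXEN cells. In all 3 numbers 6 of its 20 genes were lower and 2 higher, beside 2099 and 2574 of all 13241 genes. Of 20 ER folding genes 2 were higher, Canx and Edem1, and both overlapped under RLE scaling and after GC correction. Of 13 metal handling genes 0 had groups apart.

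Of 11 pluripotency genes that passed, 1 was higher without overlap, Lin28a. In all 3 numbers 6 were higher and 0 lower, beside 2574 and 2099 of all 13241 genes. Sall4, a zinc finger factor, was at 74.1, 159 and 75.1 CPM in ESC medium and at 155, 207 and 98.8 CPM in XEN medium. The defining factors of that state stayed low, with Pou5f1 at 9.29 CPM or less and Nanog at 2.46 CPM or less in the 6 libraries. Of 18 imprinted genes 1 was higher, Peg10, a retrotransposon-derived gene of the placenta, at 73.8, 165 and 35.8 CPM in ESC medium and 328, 352 and 524 CPM in XEN medium. Peg10 remained apart under RLE scaling and after GC correction. Plagl1, another imprinted gene, was at 102, 89.0 and 7.96 CPM in ESC medium and at 0.346, 47.0 and 33.2 CPM in XEN medium. Of 8 trophoblast genes that passed 1 was higher, Plac1, and of 4 macrophage genes 1 was lower, Csf1r, the receptor of colony-stimulating factor 1, at 3.32, 13.3 and 1.96 CPM against 0.889, 1.63 and 0.401 CPM. Plac1 and Csf1r overlapped after GC correction.

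The same change of medium was made in iXEN cells, which share no sample with the XEN comparison. Of 12920 genes tested there, 0 (0%) were called by edgeR and 3018 (23.4%) had an unadjusted p under 0.05, and DESeq2 called 1536. The test of the difference between the 2 medium effects called 0 of 14357 genes (0%), with 2131 (14.8%) at an unadjusted p under 0.05 and a smallest adjusted p of 0.221, and DESeq2 called 466. Leaving out number 6 in ESC medium gave 416 calls in iXEN cells, and leaving out number 2 in XEN medium gave 346. Of the genes tested in XEN cells, 818 (6.18%) were higher and 727 (5.49%) lower without overlap in iXEN cells. Of these and the 1668 genes apart in XEN cells, 109 were apart in the same direction in both, which is 6.53% of the XEN genes and 7.06% of the iXEN genes, and 34 in opposite directions, which is 2.04% and 2.20%. Of the 109 genes, 61 were higher and 48 lower. The shared 6.53% is near the 6.18% and 5.49% of all genes apart in iXEN cells, so this share alone is not read as agreement. The 2.04% apart in opposite directions is below both percentages, and the relation of the 2 shares was not tested. The 109 included Mycn, Prtg, Spink3, Plac1 and Hspg2, and the lysosomal genes Ctsa, Ctsd and Grn. S100a1, a calcium-binding protein gene chosen after its values were seen, lay lower in XEN medium in XEN cells, at 331, 177 and 153 CPM in ESC medium and 37.5, 29.5 and 66.8 CPM in XEN medium, with an edgeR adjusted p of 0.800 and a DESeq2 adjusted p of 0.00495, and in iXEN cells it was at 135 ± 81.5 and 48.1 ± 39.9 CPM with overlap.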

How the data were processed

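Polyadenylated RNA was extracted with Trizol and made into libraries with the Illumina TruSeq mRNA kit, per the labels. Each deposited file gives whole-number read counts per gene, made by the authors; the submitters' processing notes name FastQC 0.11.3, Trimmomatic 0.32, TopHat2 2.0.12, HTSeq 0.6.1 and build mm9, while nothing at hand states order, settings, annotation or strand use, so overlapping, antisense and near-identical genes are uncertain. The 5 lines of HTSeq that name no gene (20.8% to 29.3% of the 6 libraries) were left out of totals and tests.

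Counts of 24015 genes were tested with edgeR 4.0.16 (TMM, filterByExpr at 10 counts, quasi-likelihood, two-sided), without a block. Numbers were taken as pairs where every same-number correlation of deviations was over 0.1. The XEN libraries passed this rule and the iXEN libraries did not, so the blocked fit is given too. The rule is weak, as number 1 in XEN medium correlated more with number 2 in ESC medium (0.451) than with number 1 (0.258). DESeq2 1.42.0 and limma 3.58.1 served as alternatives. CPM used TMM factors over 17 libraries. Transcript GC content came from GENCODE M21, for 99.3% of tested genes. P-values measure only the spread between these libraries, which may be technical. Named genes were those with the widest gap between groups (8 each way, mean of 5 CPM or more in 1 medium), the smallest blocked adjusted p (12 each way, mean of 1 CPM or more), the 5 most abundant per medium, and members of 29 lists (601 symbols, 598 in the files); of symbols starting in Gm or ending in Rik the next gene was taken. The members, lists and rules were chosen with earlier results of these data known. The fit was tested on simulated data. Some genes that these rules choose are not reported here.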

Additional observations from a re-analysis of the deposited data

Results flagged for a closer look

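Ptprn2, whose product is a phosphatase-like protein of secretory vesicles, had a log2 fold change of 2.10 in XEN cells, with every XEN medium library above every ESC medium library, and the iXEN groups were apart in the opposite direction. The test of the difference between the cell types did not pass, with an edgeR adjusted p of 0.225. Zfp575 was lower in XEN medium in XEN cells and higher on average in iXEN cells. With the number as a block its log2 difference of medium effects, XEN cells minus iXEN cells, was -10.18 ± 0.96, with an edgeR adjusted p of 0.0466, and without the block the adjusted p was 0.221. The numbers did not pair the iXEN libraries, since same-numbered libraries of number 9 had a correlation of -0.0568.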

How the results depend on the processing

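The absence of calls in XEN cells held under limma-voom, RLE scaling, the other filters, the fit to all 5 groups and the replicate block. It also held under GC correction and with each library left out, while DESeq2 called 20 genes higher and 43 lower. The distance from the threshold varied. Without number 7 the smallest edgeR adjusted p was 0.1565, or 0.0626 with the block, and without number 1 it was 0.9998 in both fits. In iXEN cells the 0 calls became 1536 with DESeq2, 23 with limma-voom and 330 in the fit to all 5 groups, and ranged from 0 to 416 with 1 library left out. The interaction test called 466 genes with DESeq2 and 1 with the replicate block. In iXEN cells the numbers did not pass the rule for pairs, so the samples were taken to share only a number there. The correlations were 0.211, 0.242, 0.144 and -0.0568 for numbers 1, 2, 6 and 9. Genes whose groups did not overlap numbered 529 higher after GC correction. With 1 number left out they ranged from 1725 to 3198 higher and from 1263 to 2716 lower, where fewer libraries make separation easier. GC correction and these counts were added after seeing the data. Of 13014 values of 571 genes under the alternatives, 11689 kept direction and side of the threshold and 63 passed it with DESeq2. Another 1262 changed sign without being called, and 0 called values reversed. The 571 were list members, named genes and every gene that DESeq2 called, so the 63 were certain to be among them. No other fit to XEN cells called a gene, so only a DESeq2 value could change side or reverse. Apart from the construction just given, the cause of these differences was not tested. With 3 libraries per medium and a coefficient of variation of 0.701, a missing call does not show that a gene did not differ.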
